A study of Mus musculus with 18 samples.

Results

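Gpnmb, Trem2, Cd9, Lgals3, Fabp5 and Pla2g7 are genes by which scar-associated macrophages of fibrotic liver are recognised. A list of 7 such genes was taken up with the values of CCl4 livers and control livers already known, so how far they stood above control describes the choice and is given without a test. Of the 7 listed genes 6 could be matched by symbol among 23111 named genes on 23748 array features, and Spp1 was not analysed here. Fabp5 belongs to the list and is given with the others, whatever its values.

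Macrophages that gather along fibrotic septa take up dead cells and lipid, and they are known in mouse and human liver for a program in which a lipid-sensing receptor, lysosomal proteins and lipid-binding proteins are expressed together. Trem2 is the receptor. It binds lipids and lipoproteins and signals through the adaptor Tyrobp. Gpnmb is a transmembrane glycoprotein of the lysosome and cell surface that is induced in lipid-laden macrophages, Cd9 is a tetraspanin of the plasma membrane, Lgals3 encodes galectin-3, a sugar-binding protein secreted by macrophages, Fabp5 is a cytosolic fatty acid carrier, and Pla2g7 is a secreted phospholipase that hydrolyses platelet-activating factor and oxidised phospholipids.

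RNA of C57Bl/6N mouse livers, 3 animals in each of 6 groups, was hybridised to Affymetrix Mouse Gene 2.0 ST arrays. The labels give the control mice an age of 20 weeks. The treated mice had received carbon tetrachloride (CCl4), a hepatotoxin that kills pericentral hepatocytes and causes fibrosis when given repeatedly, at 1.6 g/kg by intraperitoneal injection 2 times a week, and were 12 weeks old after 2 weeks, 14 after 4 weeks, 16 after 6 weeks, 18 after 8 weeks and 20 after 10 weeks. The study's methods give male mice, olive oil as the solvent, a piece of the right liver lobe, and killing 2 days after the last injection. The labels call the control mice healthy at 10 weeks, while the methods list a group at 0 weeks among the array samples, and speak of oil injection in one place and of untreated mice in another. Their age relative to the treated mice is therefore not settled. Age and weeks of CCl4 cannot be told apart among the treated groups.

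All 18 arrays shared a single set of sorted values, with medians of 4.35 on the log2 scale. Replicates 1 and 2 of week 6 differed by an SD of 0.116 over genes above a mean of 8, against 0.203 to 0.439 in the 17 other pairs of the same group, so that their mean was counted as 1 sample and week 6 had n = 2. In replicate 2 of week 10 the pancreas enzyme genes Ctrb1 and Cpb1 stood at 7.67 and 6.42, against no more than 5.07 and 3.93 in the 17 other livers. Because whole tissue was measured, more macrophages and more RNA of these genes per macrophage cannot be told apart.

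In the mouse reference (RefSeq, GRCm38.p6), Gpnmb lies on chr6:49036518-49058182, Trem2 on chr17:48346401-48352276, Cd9 on chr6:125460266-125494760, Lgals3 on chr14:47373860-47386167, Fabp5 on chr3:10012585-10016610 and Pla2g7 on chr17:43567994-43612202. Each array value summarises the probes of a whole gene. Promoter windows of 250 bases before to 50 bases after the start were found for 5 of the 6 genes. The 3 windows below are shown because these 3 genes were correlated across the CCl4 livers. All are on the plus strand, and capitals mark motif matches.
Gpnmb promoter (chr6:49036268-49036567): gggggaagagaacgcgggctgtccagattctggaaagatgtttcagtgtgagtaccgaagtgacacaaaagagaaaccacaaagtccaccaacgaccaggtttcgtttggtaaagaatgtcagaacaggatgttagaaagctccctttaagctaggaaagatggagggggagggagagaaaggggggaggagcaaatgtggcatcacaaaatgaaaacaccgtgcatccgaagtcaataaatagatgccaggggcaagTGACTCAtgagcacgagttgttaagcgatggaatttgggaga
Trem2 promoter (chr17:48346151-48346450): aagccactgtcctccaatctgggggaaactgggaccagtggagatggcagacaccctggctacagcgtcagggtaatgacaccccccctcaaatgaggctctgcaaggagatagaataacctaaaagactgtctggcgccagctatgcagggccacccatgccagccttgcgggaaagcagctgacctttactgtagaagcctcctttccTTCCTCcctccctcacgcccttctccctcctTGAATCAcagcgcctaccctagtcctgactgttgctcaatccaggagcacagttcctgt
Lgals3 promoter (chr14:47373610-47373909): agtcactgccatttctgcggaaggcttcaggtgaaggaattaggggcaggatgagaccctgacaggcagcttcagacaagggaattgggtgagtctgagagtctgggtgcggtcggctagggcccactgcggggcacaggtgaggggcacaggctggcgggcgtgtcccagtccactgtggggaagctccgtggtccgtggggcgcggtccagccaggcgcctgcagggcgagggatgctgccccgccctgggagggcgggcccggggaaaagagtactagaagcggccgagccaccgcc
The search covered both strands for CACGTG (the E-box read by the MITF and TFE family), CATGTG, the AP-1 motif TGANTCA, the PU.1 core GAGGAA and TATAAA. These motifs occurred in 7.15%, 14.2%, 7.81%, 28.3% and 13.6% of 32851 promoter windows of the same length, in that order. The Gpnmb window held the AP-1 letters once, 8 bases from the start. The Trem2 window held them once, at -9, and the PU.1 core once on the opposite strand, at -40. None of the 5 motifs occurred in the Lgals3 window or in that of Pla2g7, and that of Cd9 held CATGTG once on the opposite strand, at -38. The Pla2g7 window, chr17:43568201-43568500, belongs to a start inside the gene interval given above. The bases before that interval were not searched for Pla2g7.

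Gpnmb had the widest range of the 6 genes. Its log2 values were 4.58, 4.16 and 4.47 in control livers, 8.03, 9.16 and 7.66 at week 2, 8.52, 7.27 and 9.31 at week 4, 10.33, 10.40 and 9.40 at week 6, 8.04, 7.64 and 7.50 at week 8, and 7.27, 8.19 and 8.07 at week 10. All 15 CCl4 livers lay above all 3 control livers, and the 3 week 6 livers lay above every other CCl4 liver, the nearest being replicate 3 of week 4. Counts of livers, here and below, take the near-alike replicates 1 and 2 of week 6 as separate livers. How large a share of all genes shows no overlap with control livers was not computed, here or for the genes below. The fitted log2 difference between CCl4 and control livers was 3.88 ± 0.49 (SE) at week 2, 3.96 ± 0.49 at week 4, 5.48 ± 0.55 at week 6, 3.32 ± 0.49 at week 8 and 3.44 ± 0.49 at week 10. These are 14.7-, 15.6-, 44.6-, 10.0- and 10.8-fold. Among the differences of all 23111 named genes, that of Gpnmb ranked 2, 2, 1, 6 and 5 from the top at weeks 2, 4, 6, 8 and 10. In order of the group means, week 6 came first, followed by weeks 4, 2, 10 and 8 and by control livers. The ranges of weeks 4, 2, 10 and 8 overlapped from each to the next, while week 6 and control livers overlapped with no other group.

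Trem2, the receptor, covered a smaller range. Its log2 values were 4.48, 4.82 and 4.77 in control livers, 5.85, 6.56 and 5.73 at week 2, 5.83, 5.34 and 6.54 at week 4, 6.58, 6.93 and 6.07 at week 6, 5.65, 5.54 and 5.82 at week 8, and 5.58, 5.68 and 5.45 at week 10. All 15 CCl4 livers were above the control livers, while each CCl4 week overlapped with the next in order of the means. The week 8 and week 10 livers were the most alike, with SDs of 0.138 and 0.116, against 0.451 at week 2 and 0.601 at week 4. The fitted differences from control livers were 1.36, 1.21, 1.72, 0.98 and 0.88 (SE 0.28, at week 6 0.31) from week 2 to week 10, or 2.56-, 2.31-, 3.30-, 1.97- and 1.84-fold.

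Lgals3 followed Gpnmb in its order of groups. Its log2 values were 7.69, 7.21 and 7.38 in control livers, 8.84, 9.56 and 9.18 at week 2, 9.27, 8.93 and 10.02 at week 4, 10.75, 10.84 and 9.47 at week 6, 8.99, 8.01 and 8.14 at week 8, and 8.41, 9.18 and 8.25 at week 10. No CCl4 liver reached down to the control livers, the nearest being a pair of week 8 livers (replicates 2 and 3), and at week 6 replicate 3 was well below the other livers. The fitted differences were 1.77, 1.98, 2.71, 0.95 and 1.19 (SE 0.39, at week 6 0.44), or 3.41-, 3.94-, 6.54-, 1.94- and 2.28-fold.

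Cd9, the tetraspanin, had its means of weeks 10 and 8 next below that of week 6. Its log2 values were 6.04, 6.58 and 6.48 in control livers, 7.90, 8.23 and 7.26 at week 2, 7.36, 7.67 and 7.77 at week 4, 8.39, 8.44 and 8.55 at week 6, 8.06, 7.83 and 7.99 at week 8, and 7.94, 8.50 and 7.48 at week 10. All 15 CCl4 livers were above the control livers, and the order of the means was weeks 6, 10, 8, 2 and 4, each overlapping with the next. The highest week 10 liver for Cd9 was replicate 2, the liver with high Ctrb1 and Cpb1. It was the highest of week 10 for Gpnmb, Trem2 and Lgals3 too, but not for Pla2g7 or Fabp5. With arrays left out in turn, Cd9 at week 10 differed from week 8 by -0.25 to 0.26 and from week 2 by -0.09 to 0.42. The fitted differences of 1.43, 1.23, 2.12, 1.59 and 1.61 (SE 0.26, at week 6 0.29) were 2.69-, 2.35-, 4.33-, 3.02- and 3.04-fold.

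Pla2g7, the phospholipase, had a small difference with little scatter. The CCl4 livers ranged from 4.48 to 5.15 with a median of 4.67, and the control livers stood at 4.05, 4.21 and 4.14. The groups did not overlap, although the control values lay below the median of all features on each of the 3 arrays. The fitted differences from week 2 to week 10 were 0.64, 0.45, 0.73, 0.57 and 0.43 (SE 0.10, at week 6 0.11), or 1.35- to 1.65-fold.

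Fabp5, the fatty acid carrier, did not follow the other 5 genes. The CCl4 livers ranged from 4.24 to 5.18 with a median of 4.54, and the control livers stood at 4.69, 4.51 and 4.56. Of the 15 CCl4 livers 6 were above all control livers, the highest of them replicate 3 of week 8. The 95% intervals of the difference from control livers were -0.48 to 0.26 at week 2, -0.37 to 0.37 at week 4, -0.35 to 0.48 at week 6, -0.15 to 0.60 at week 8 and -0.39 to 0.35 at week 10. All these levels were near the median of all features, 4.35, and 14 of 15 CCl4 livers and all 3 control livers were above it. At such a level, with no detection call, unchanged RNA cannot be told from RNA that was not detected. The probes of Fabp5 could not be checked here for near-identical gene copies.

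**Figure D1:**
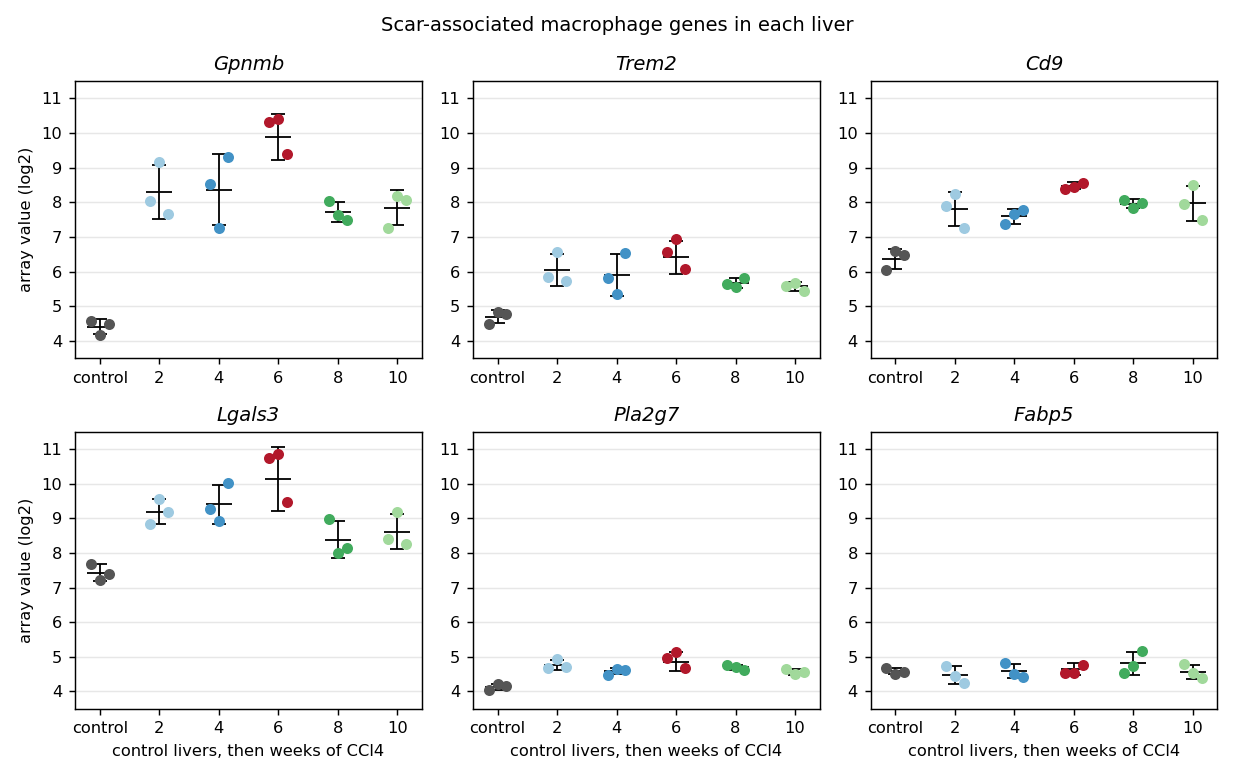
Log2 array values of the 6 genes in each liver, control livers at the left and then the CCl4 weeks in rising order. Each point is an array, and bars give the mean ± SD with week 6 replicates 1 and 2 counted as 1 sample. All 15 CCl4 livers lie above the 3 control livers for 5 genes, and for Fabp5 6 of 15 do. For how large a share of all genes this holds was not computed.

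Calls needed a limma p of less than 0.05 after adjustment together with more than a 1.5-fold change. By this rule 5 of the 6 genes were called higher at week 2, where 0.831% of all named genes were. At week 4 it was 4 of 6 (Gpnmb, Trem2, Cd9 and Lgals3), with 0.528% of all genes, at week 6 5 of 6, with 2.98%, at week 8 2 of 6, with 0.563%, and at week 10 2 of 6, with 1.31%. The genes called at weeks 8 and 10 were Gpnmb and Cd9. Trem2 was called at both weeks too with a fit to the compared groups alone or without week 4 replicate 3. Pla2g7 was called at both with no fold threshold, and at week 8 without control replicate 2 or week 8 replicate 3. Since the choice of the genes rested on these same comparisons, the counts are a description. Gpnmb was called at each of the 5 weeks whichever of the 18 arrays was left out. The count at week 2 was 2 without control replicate 1, 3 without control replicate 2 or 3, and 1 without week 2 replicate 2. At week 4 it was 1 without any of the 3 control replicates or without week 4 replicate 3, and 2 without week 4 replicate 1 or week 10 replicate 1. The week 4 call of Trem2 was lost in 14 of the 18 cases of a left-out array, with array quality weights, and with repeated quantile normalization.

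General macrophage genes were also higher in CCl4 livers, so each liver's difference from the control mean was set beside the mean difference of 9 such markers, among them Adgre1, a surface receptor of macrophages, and Csf1r, the receptor for macrophage colony-stimulating factor. The marker mean was 0.49 to 1.66 above control over the 15 CCl4 livers. Gpnmb exceeded it in 15 of 15 livers, by 1.79 to 4.43. Cd9 exceeded it in 14 livers, Lgals3 in 13 and Trem2 in 12, with Trem2 within -0.42 to 0.62 of the marker mean. Pla2g7 exceeded it in 1 liver of 15 and Fabp5 in 0. These counts depend on which markers are averaged, since 3 of the 9 were called higher at no week. The largest called differences among the markers were 2.18 for Cybb, 1.98 for Adgre1, 1.60 for Itgam and 1.59 for Ptprc. That of Trem2 was 1.72, at week 6. Whether the share of macrophages in the tissue accounts for any of these values was not tested.

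**Figure D2:**
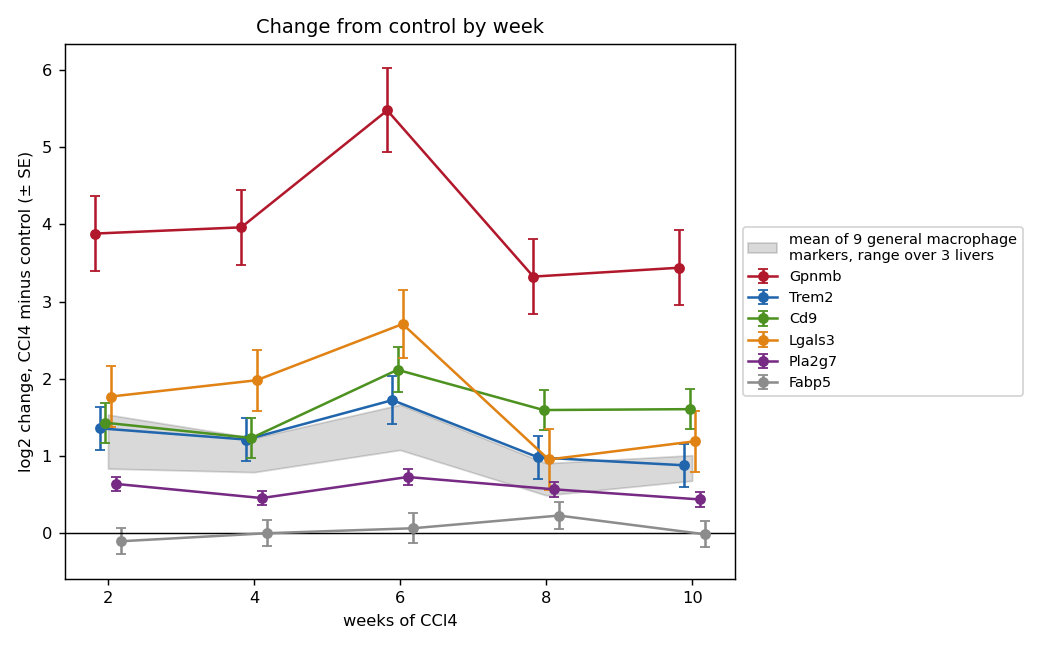
Log2 difference between CCl4 and control livers (± SE from the limma fit) against weeks of CCl4 for the 6 genes, where the grey band is the range over 3 livers of the mean difference of 9 general macrophage markers. Gpnmb lies above the band at every week, Trem2 lies in or close to it, and Fabp5 stays near 0.

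The comparison among treated livers asks whether these genes changed with continued CCl4. Its differences are taken between CCl4 livers alone, while the spread in the model comes from all 6 groups, control livers included. The values of the CCl4 weeks were also known when the genes were chosen. Week 8 differed from week 6 by -2.15 for Gpnmb (95% interval -3.34 to -0.97, limma adjusted p = 0.157) and by -1.76 for Lgals3 (-2.71 to -0.80, adjusted p = 0.151). Neither passed the threshold after adjustment over 23111 genes, and 27 genes (0.117%) did. For Trem2 the difference was -0.74 (-1.42 to -0.07, adjusted p = 0.433), for Cd9 -0.52 (-1.15 to 0.11, adjusted p = 0.607), for Pla2g7 -0.16 (-0.39 to 0.07, adjusted p = 0.698) and for Fabp5 0.16 (-0.25 to 0.58, adjusted p = 0.871). The study groups weeks 8 and 10 as a tolerance phase after a progression phase of weeks 4 and 6. Between these phases Gpnmb differed by -1.34 (-2.13 to -0.55, adjusted p = 0.232), Lgals3 by -1.27 (-1.91 to -0.64, adjusted p = 0.170) and Trem2 by -0.54 (-0.99 to -0.08, adjusted p = 0.423), while Cd9 differed by -0.07 (-0.50 to 0.35, adjusted p = 0.959).

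Week 6 was also set against the mean of weeks 2, 4, 8 and 10. The difference was 1.83 for Gpnmb (0.84 to 2.82, limma adjusted p = 0.132), 1.24 for Lgals3 (0.44 to 2.03, adjusted p = 0.216), 0.65 for Cd9 (0.12 to 1.18, adjusted p = 0.366), 0.62 for Trem2 (0.05 to 1.18, adjusted p = 0.446) and 0.20 for Pla2g7 (0.01 to 0.40, adjusted p = 0.466). None of the 6 was called by limma, against 45 genes (0.195%) overall. Without adjustment 5 of the 6 genes had a limma p under 0.05 here, 3 at week 8 against week 6 and 3 at week 6 against week 4. Between the phases 3 did, and 0 at week 4 against 2, 10 against 8 or 10 against 2. The share of all genes under this unadjusted cut was not counted, here or for the gene lists below. The percentages given are for calls after adjustment, which at week 6 against week 4 were 0.169% of all genes. By limma 0% of all genes were called between the phases, at week 4 against week 2 and at week 10 against week 8. Counting the near-alike week 6 arrays as separate samples, Gpnmb and Lgals3 passed at week 8 against week 6 (adjusted p = 0.0339 and 0.0303) and at week 6 against the other weeks (adjusted p = 0.0158 and 0.0278). The moderated F test over the 5 weeks called 0 of the 6 genes (lowest adjusted p = 0.271, Lgals3; 2 with p under 0.05 before adjustment) and 16 of all genes (0.0692%). Week 10 differed from week 2 by -0.44 for Gpnmb (-1.50 to 0.61), -0.58 for Lgals3 (-1.43 to 0.27) and 0.18 for Cd9 (-0.39 to 0.74), with 0 of the 6 genes and 0.0173% of all genes called.

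**Figure D3:**
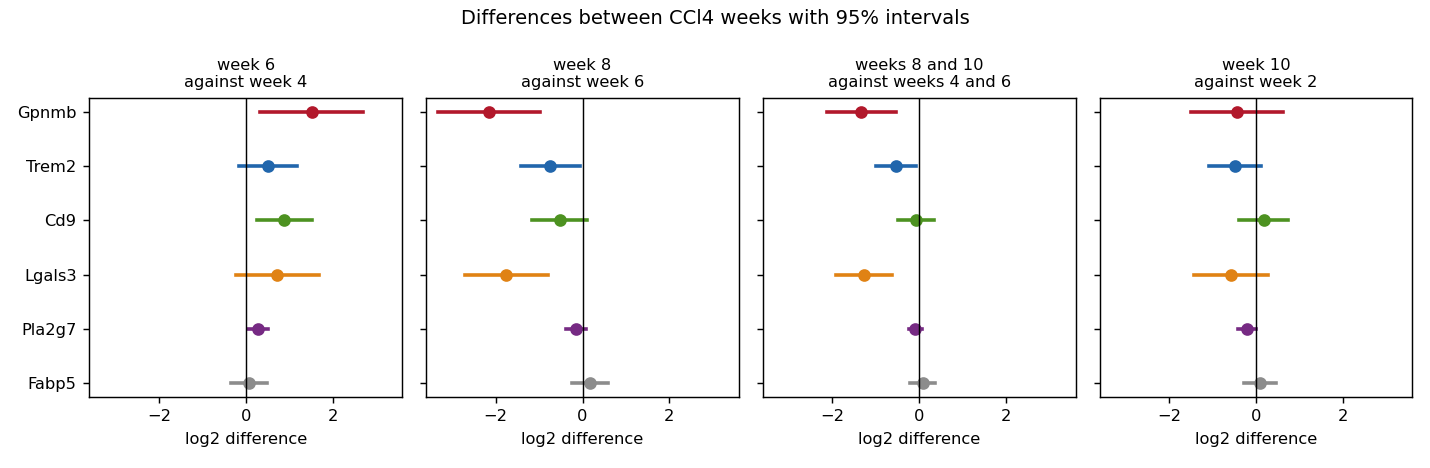
Log2 differences between CCl4 weeks for the 6 genes (points) with 95% intervals from the limma fit (lines), in 4 comparisons, where values right of 0 are higher in the week named first. Intervals of Gpnmb, Lgals3 and Trem2 lie below 0 at week 8 against week 6 and at weeks 8 and 10 against weeks 4 and 6, and no difference passed adjustment over 23111 genes.

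Gpnmb was correlated with Trem2 and Lgals3 across CCl4 livers. Over 14 CCl4 samples, 10 correlations with Gpnmb were computed, with 100000 permutations each and Benjamini-Hochberg adjustment over the 10. The genes were chosen with the values of these livers known. The p-values here and in the next paragraph therefore describe genes chosen in this way and are no independent test. These permutations let values change places between weeks, so differences between weeks enter their p-values. Trem2 had r = 0.886 (adjusted permutation p = 0.0005) and rho = 0.757 (adjusted p = 0.0123). Lgals3 had r = 0.863 (adjusted p = 0.0005) and rho = 0.829 (adjusted p = 0.0038). Both relations held without the 2 samples farthest from the median of Gpnmb, which are the 2 week 6 samples, with r = 0.856 for Trem2 (adjusted p = 0.0152) and 0.761 for Lgals3 (adjusted p = 0.0193). The order of the 3 livers was the same in all 3 genes at week 4, and differed between genes at weeks 2, 8 and 10. After removal of the week means r was 0.872 for Trem2 and 0.746 for Lgals3, and the exact permutation test within weeks (2592 orders) gave p = 0.0177 and 0.0139, both 0.0887 after adjustment.

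The other members were less tied to Gpnmb. Cd9 had r = 0.487 (adjusted permutation p = 0.127, rho = 0.398, adjusted p = 0.268) and 0.152 without the 2 farthest samples. Pla2g7 had r = 0.524 (adjusted p = 0.111, rho = 0.141, adjusted p = 0.629) and 0.163 without them, and Fabp5 r = -0.212 (adjusted p = 0.520, rho = -0.198, adjusted p = 0.620) and -0.326. Genes of other cells were correlated with Gpnmb as well. Col1a1, the collagen of activated stellate cells, had r = 0.872 (adjusted permutation p = 0.000533, rho = 0.682, adjusted p = 0.0290) and 0.693 without the 2 farthest samples (adjusted p = 0.0475). The proliferation gene Mki67 had r = 0.708 (adjusted p = 0.0123, rho = 0.629, adjusted p = 0.0469), but 0.496 without those samples (adjusted p = 0.210). The pan-macrophage gene Adgre1 had r = 0.448 (adjusted permutation p = 0.155, rho = 0.414, adjusted p = 0.268) and 0.367 without them, the Kupffer cell gene Clec4f r = 0.345 (adjusted p = 0.285, rho = 0.348, adjusted p = 0.316) and 0.630 without them (adjusted p = 0.0695), and the bile duct keratin Krt19 r = 0.153 (adjusted p = 0.606, rho = -0.154, adjusted p = 0.629) and -0.315 without them. Within weeks none of the 10 relations passed adjustment (lowest adjusted exact permutation p = 0.0887).

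**Figure D4:**
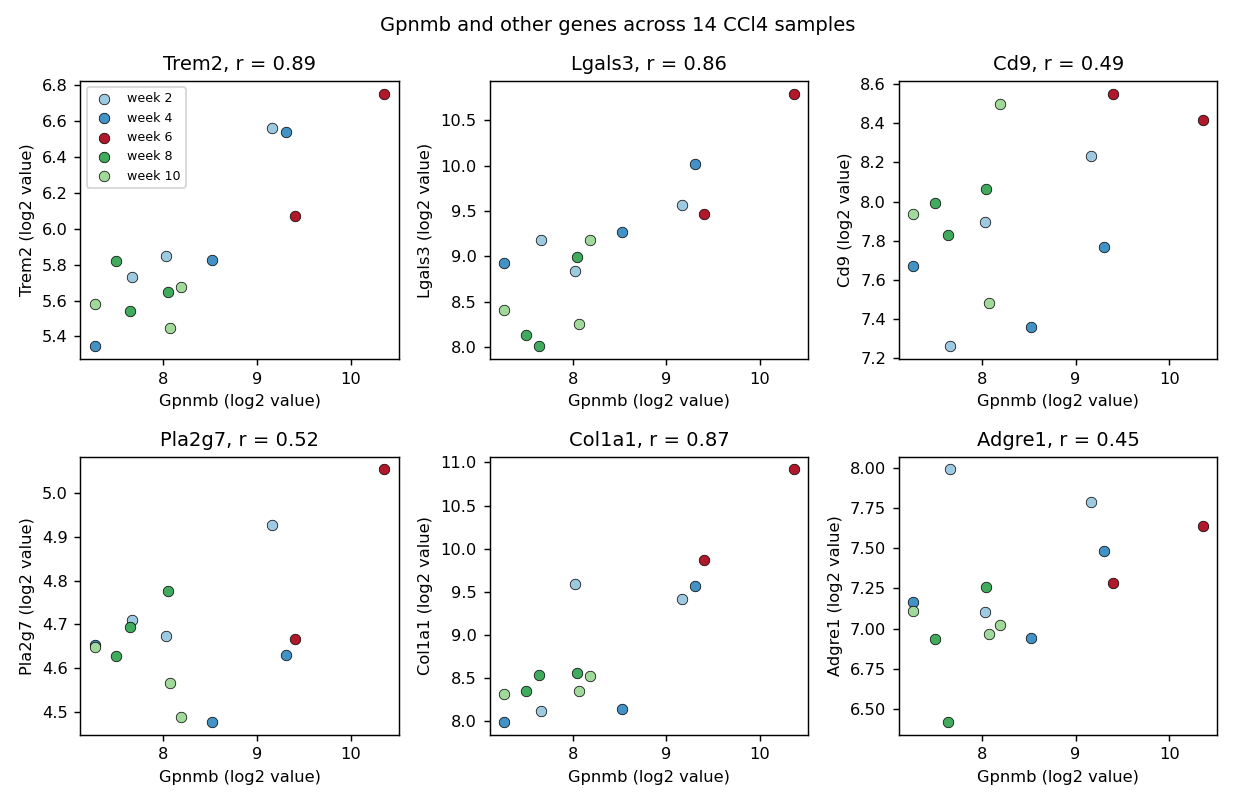
Log2 values of 6 genes against that of Gpnmb in 14 CCl4 samples, coloured by week, with Pearson's r over each panel. Trem2 (r = 0.89), Lgals3 (r = 0.86) and Col1a1 (r = 0.87) increase with Gpnmb, and the 2 week 6 samples are at the right end.

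Outside the list, the 5 genes most like Gpnmb over the same 14 samples by Pearson's r were Mmp12 (0.955), the macrophage metalloelastase, Dctd (0.917), a deaminase of nucleotide metabolism, Sparc (0.908), a matrix glycoprotein, Adam8 (0.896), a membrane metalloprotease of leukocytes, and Col3a1 (0.896), a fibrillar collagen. These were picked as the highest of all named genes and carry no test. They differed in size. Dctd lay within 0.13 of the control mean at every week and was called at none, whereas Sparc was 1.32 to 2.41 higher in CCl4 livers and called at all 5 weeks.

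Genes that work with these 6 were taken from 4 lists, of Trem2 signalling, lipid handling, the lysosome, and other scar-associated macrophage genes, with 48 of 50 genes measured. These lists and those below were also chosen with earlier results of these data known. Their calls and p-values therefore describe genes chosen in this way and are no independent test. Here and below, rose and fell mean called higher or lower by the rule above. Of the 48 genes 14 rose at week 2, 12 at week 4, 27 at week 6, 8 at week 8 and 12 at week 10. Of all named genes 0.831%, 0.528%, 2.98%, 0.563% and 1.31% rose at these weeks, in that order. Of the 48 genes 1 fell, at week 6, where 1.86% of all genes fell. The medians over the 48 genes were 0.45, 0.40, 0.67, 0.34 and 0.41, against medians between -0.02 and -0.01 over all genes. Without control replicate 2 or 3 or week 2 replicate 2, the week 2 count was 8, 7 or 6. That of week 4 was 7, 6 or 6 without control replicate 2 or 3 or week 4 replicate 3. That of week 8 was 5, 4 or 3 without control replicate 1, 2 or 3, and 3 without week 8 replicate 1 or 3. That of week 10 was 7 without control replicate 3 or week 10 replicate 2. The genes that rose at all 5 weeks numbered 7, and 21 of the 48 were called higher at none. Without adjustment, 41 of the 48 had a limma p under 0.05 at 1 week or more, in either direction. For counts at 1 week or more and at all 5 weeks, here and in the lists below, the share over all genes was not computed.

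In Trem2 signalling, 3 of 9 genes rose at 1 week or more and none at all 5. Tyrobp, the adaptor that Trem2 needs to signal, stood at 5.24 ± 0.35 (SD, n = 3) in control livers, 6.10 ± 0.27 at week 2, 6.35 ± 0.28 at week 4, 6.39 ± 0.55 at week 6 (n = 2), 5.82 ± 0.10 at week 8 and 5.92 ± 0.27 at week 10. It rose by 1.11 at week 4 (limma adjusted p = 0.0329) and by 1.15 at week 6 (adjusted p = 0.0144), and its other weeks were not called. The call at week 4 was lost without control replicate 2 or 3 or week 4 replicate 2 or 3, and that at week 6 without control replicate 3. Inpp5d, a phosphatase that restrains such receptors, rose by 0.65 at week 2, a call lost under 8 alternatives (any left-out control replicate among them), and by 0.76 at week 6. Adam10, a protease that sheds Trem2 from the cell surface, rose at week 6 by 0.82 (adjusted p = 0.000606).

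In lipid handling, 7 of 11 genes rose at 1 week or more and 3 at all 5. Lpl, lipoprotein lipase, stood at 6.50 ± 0.47 in control livers, 9.27 ± 0.93 at week 2, 9.43 ± 0.47 at week 4, 10.30 ± 0.41 at week 6, 8.99 ± 0.65 at week 8 and 9.55 ± 0.53 at week 10. It rose by 2.49 to 3.80, and Cd36, a scavenger receptor and fatty acid transporter, by 1.87 to 2.57. Msr1, another scavenger receptor, rose at all 5 weeks too, by 0.83 to 1.41, and Fabp4, a fatty acid carrier, by 1.03 at weeks 6 and 10. Week 8 calls were lost for Lpl without control replicate 2 or 3 or week 8 replicate 1 or 3, and for Msr1 without control replicate 1 or 3 or the same week 8 replicates. Those of Fabp4 were lost without control replicate 3, week 6 replicate 3 (week 6), or week 10 replicate 2 or 3 (week 10). Npc1, a cholesterol transporter of the late endosome, was the gene that fell, by 0.74 at week 6 (limma adjusted p = 0.0172), a call that was lost without control replicate 1 or 3.

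Between treated weeks, 2 of the 48 genes passed the limma F test, where 0.0692% of all genes did, and they are named after their values were seen. Plin2, a lipid droplet coat protein, was 0.91 higher at week 10 than at week 2 (SE 0.11, adjusted p = 0.0304) and 0.76 higher at week 6 than at week 4 (SE 0.13, adjusted p = 0.0318). At week 6 it was 0.59 above the mean of weeks 2, 4, 8 and 10 (SE 0.11, limma adjusted p = 0.0396). Its difference from control livers was -0.50 at week 2 and 0.65 at week 6. Lipa, lysosomal acid lipase, differed among the weeks (adjusted p = 0.0428). These calls rested on single arrays. The F test called 0 of the 48 genes without any single control replicate, week 4 replicate 1, week 8 replicate 3 or week 10 replicate 1. The Plin2 call at week 10 against week 2 was lost without control replicate 2 or 3, any week 2 replicate, week 4 replicate 1, week 8 replicate 3, or week 10 replicate 1 or 2. That at week 6 against week 4 was lost without any control replicate, week 4 replicate 1 or 2, week 6 replicate 3 or week 10 replicate 1. At week 6 against the mean of the other treated weeks, leaving out each array in turn gave 0 to 1 of the 48 genes called. With all arrays 0.195% of all genes were called there.

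Among 15 measured lysosome genes, 10 rose at 1 week or more. Cd68, a macrophage lysosomal glycoprotein, stood at 6.68 ± 0.30 in control livers, 8.66 ± 0.23 at week 2, 8.67 ± 0.56 at week 4, 9.21 ± 0.77 at week 6, 7.85 ± 0.58 at week 8 and 8.30 ± 0.49 at week 10. It was called higher at each week but week 8. Its calls at weeks 2, 4 and 10 were each lost without control replicate 2 or 3. That at week 2 was also lost without week 2 replicate 2, that at week 4 without week 4 replicate 3, and that at week 10 without control replicate 1 or week 10 replicate 1 or 2. The protease gene Ctss rose at all 5 weeks, by 1.29 to 2.27, as did Ctsd, named here because it is among the 7 genes that did. The week 8 call of Ctss was lost without control replicate 2 or week 8 replicate 3. Cd63, a tetraspanin of lysosomes and exosomes, rose at week 6 by 1.72. Atp6v0d2, a proton pump subunit of macrophages and osteoclasts, rose by 2.85 at week 2 (adjusted p = 0.0208) and 2.19 at week 6 (adjusted p = 0.0482), and the call at week 6 was lost under 14 alternatives and that at week 2 without control replicate 2 or 3 or week 2 replicate 2. Lamp1 and Lamp2, membrane proteins of lysosomes in every cell type, stayed within 0.13 of control livers.

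Of 13 other scar-associated genes 7 rose at 1 week or more. Clec7a, the beta-glucan receptor dectin-1, stood at 4.59 ± 0.45 in control livers, 7.28 ± 0.54 at week 2, 7.09 ± 0.67 at week 4, 7.79 ± 0.45 at week 6, 6.69 ± 0.11 at week 8 and 6.63 ± 0.26 at week 10, and it rose at all 5 weeks, as did Mmp14, a membrane-bound matrix metalloprotease, by 1.17 to 2.12. Mmp12 rose at week 6, by 3.12 (adjusted p = 0.00384), and its differences of 1.85, 1.79, 1.10 and 0.95 at weeks 2, 4, 8 and 10 were not called. Vim, the intermediate filament of mesenchymal cells and leukocytes, rose by 1.55 at week 2 and 2.34 at week 6. The week 2 call of Vim was lost without control replicate 2 or 3 or week 2 replicate 1 or 2, and the week 8 call of Mmp14 without control replicate 2 or 3 or week 8 replicate 1 or 3.

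**Figure D5:**
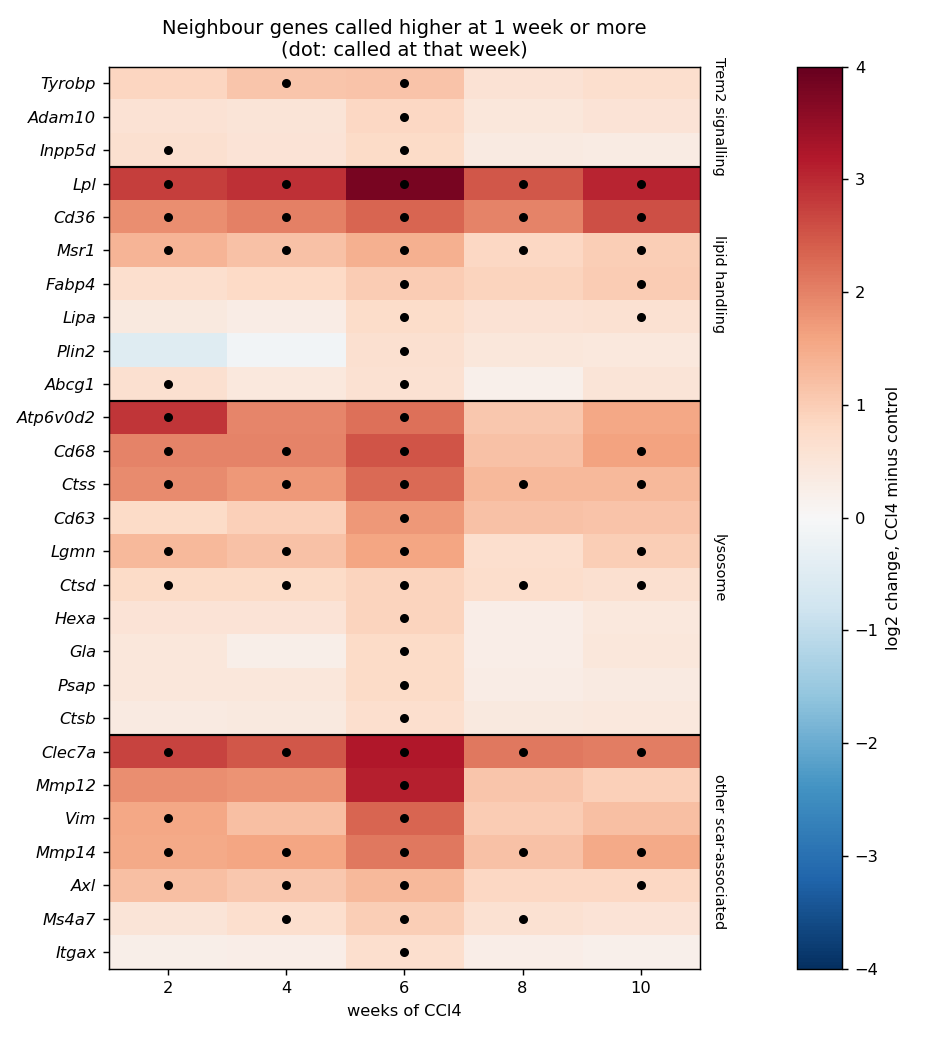
Log2 difference between CCl4 and control livers (colour) by week of treatment for the 27 of 48 neighbour genes that rose at 1 week or more, grouped by list, where a dot marks a week at which the gene was called. All 27 have a dot at week 6, and 7 have a dot at all 5 weeks.

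Of 8 measured genes for transcription factors of macrophages and of the lysosome, 0 were called higher by limma at any week, although 7 had an unadjusted p under 0.05 in some week. For Spi1, which encodes PU.1, the difference at week 6 was 0.52 (limma adjusted p = 0.0819). Pparg, a nuclear receptor of lipid metabolism, fell by 0.59 at week 2 (adjusted p = 0.0436), with the call lost under 12 alternatives. Cd44 and 7 integrin subunits, receptors for matrix glycoproteins, were measured as a further list, of which 4 rose at 1 week or more. Itgb5 rose at all 5 weeks, by 0.61 to 1.09, and Itga5 at weeks 2, 6 and 10, by 1.01, 1.60 and 0.81. The Itga5 call at week 10 was lost under 8 alternatives, any left-out control replicate among them, and that at week 2 without control replicate 1 or 3 or week 2 replicate 2. The week 4 call of Itgb5 was lost without control replicate 2 or week 4 replicate 3.

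Close relatives of the 6 genes moved in few cases. By limma 0 of the 5 Trem relatives and 0 of 7 relatives in the families of Gpnmb, Pla2g7 and Spp1 were called at any week, and 2 and 1 of them had an unadjusted p under 0.05 in some week. Of the tetraspanins, 1 of 7 rose, Cd53, a leukocyte tetraspanin, by 1.09 to 1.95 at all 5 weeks, with the week 8 call lost without any control replicate or without week 8 replicate 1 or 3. Of the galectins, 1 of 7 rose, Lgals1, by 1.72 to 2.55 at all 5 weeks. Fabp7, which like Fabp5 encodes a fatty acid carrier, stood at 5.88 ± 0.45 in control livers, 7.83 ± 0.50 at week 2, 7.17 ± 0.47 at week 4, 7.86 ± 0.40 at week 6, 6.89 ± 0.29 at week 8 and 7.12 ± 0.03 at week 10. It was called at each week but week 8, with the week 4 call lost under 19 alternatives and the week 10 call without control replicate 2 or 3 or any week 10 replicate. Fabp1, the carrier of hepatocytes, fell by 0.60 at week 2 (limma adjusted p = 0.0119), a call lost without control replicate 2 or week 2 replicate 3.

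Markers of other cells were measured beside these values. Of the 9 general macrophage markers 6 rose at 1 week or more, and their mean level was 6.12 to 7.29 in CCl4 livers and 5.39 to 5.83 in control livers. Adgre1 rose by 1.22 to 1.98 and Cybb, the catalytic subunit of the phagocyte oxidase, by 1.35 to 2.18, both at all 5 weeks. The week 8 call was lost under 12 alternatives for Adgre1, 10 of them the loss of 1 array (control replicate 2 or 3, week 2 or week 4 replicate 2, week 6 replicate 3, week 8 replicate 1 or 3, or any week 10 replicate), and under 5 for Cybb (among them control replicate 2 or 3 and week 8 replicate 1 or 3 left out). The week 4 call of Adgre1 was lost without control replicate 2 or 3 or week 4 replicate 3, and that of week 10 without control replicate 2 or 3. Of the 7 Kupffer cell markers 2 rose at some week, Vsig4 and Cd5l, and Cd163 fell by 0.74 at week 10, while Clec4f differed by 0.02 to 0.66 with no call. All 7 had an unadjusted limma p under 0.05 in some week, in either direction. The mean level of the 7 was 6.53 to 8.20 in CCl4 livers and 6.28 to 6.71 in control livers. The Cd5l calls, at weeks 2 and 6, were each lost under 13 alternatives, any left-out control replicate among them. That of Cd163 was lost under 6, among them control replicate 1 or 3 and week 10 replicate 1 or 3 left out, and that of Vsig4 at week 10 under 4, namely without control replicate 2 or 3 or week 10 replicate 1 or 2. By limma 0 of 3 monocyte, 6 dendritic cell, 4 lymphocyte and 7 bile duct markers were called at any week, with 2, 0, 3 and 2 of them at an unadjusted p under 0.05 in some week. Of the 8 markers of stellate cells and fibroblasts 6 rose, Col1a1 by 2.83 to 4.83, and the mean level of the 8 was 7.19 to 9.26 in CCl4 livers and 5.96 to 6.30 in control livers. The 5 cell cycle genes were called at week 6 and at no other week, Mki67 with a rise of 4.14. Mki67 was 2.53 above control livers at week 2 and 2.02 at week 10 without a call, and 0 of the 5 genes were called by limma at week 6 against the other treated weeks, where its difference was 2.21 (unadjusted p = 0.0125, adjusted p = 0.302). The part of any of these cell types in the values of the 6 genes was not tested.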

How the data were processed

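Liver RNA of 18 mice was hybridised to Affymetrix Mouse Gene 2.0 ST arrays. The deposited values are log2 expression values that the authors produced by RMA (per the labels), with probes grouped by Entrez gene through a custom Brainarray chip definition (per the methods). All 18 columns held the same sorted values, as after quantile normalization. Genes were named through the platform's probe table, and 637 of 23748 features had no single symbol. Replicates 1 and 2 of week 6 were averaged, leaving 17 samples. A model with 1 mean per group was fitted to 23111 genes in limma 3.58.1 (R 4.3.3), with eBayes and Benjamini-Hochberg adjustment within each comparison, and checked on simulated data. Fold changes are ratios of RMA values. The number of arrays limits the precision. Groups came from the labels, which call the replicates biological. Whether the near-alike replicates 1 and 2 of week 6 came from 1 liver could not be told from the labels.

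The genes and all gene lists were chosen with earlier results of these data known. Named from each list were at most 4 genes, those with the largest called change, and from all genes the 5 most correlated with Gpnmb. Ctsd, Npc1, Plin2, Lipa, Lamp1, Lamp2, Csf1r and Spi1 lie outside this rule and were named after their values were seen. A filter on dim genes, other normalizations, weights, thresholds and left-out arrays were tried as alternatives. The replicate numbers were not taken as pairs: same-numbered livers of different groups had a mean correlation of -0.00894 in their deviations from group means, against 0.00396 for other numbers. Scanner files were not used here. Correlations used Python 3.11.15 and SciPy 1.17.1. Promoter sequences are those of RefSeq on GRCm38.p6.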

Additional observations from a re-analysis of the deposited data

Results flagged for a closer look

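Itga5, an integrin subunit for fibronectin, differed between week 8 and week 6 by -1.28 (SE 0.222, limma adjusted p = 0.0421). Cd163, a scavenger receptor of resident macrophages, differed between week 10 and week 2 by -1.32 (SE 0.176, limma adjusted p = 0.0384). All week 2 livers were above the control mean for Cd163 and all livers of weeks 6, 8 and 10 below it, with differences of 1.06, 1.09 and 1.32 between week 2 and these weeks. For weeks 6 and 8 this difference was not tested by itself. For Dctd all week 6 livers were above and all week 10 livers below the control mean, 0.164 apart. For Cpb1 week 4 was above and weeks 6 and 8 were below it, 0.0708 and 0.0431 apart. The Dctd and Cpb1 differences were not tested and are small beside the values of the 6 genes.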

How the results depend on the processing

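No called gene change changed sign under the alternatives tried. Differences without a call did, with arrays left out in turn, and the following are examples. Gpnmb ranged from -0.39 to 0.63 at week 4 against week 2 and from -0.06 to 0.40 at week 10 against week 8. At week 4 against week 2, Lgals3 ranged from -0.10 to 0.45 and Trem2 from -0.46 to 0.13. Cd9 ranged from -0.09 to 0.42 at week 10 against week 2 and from -0.21 to 0.05 between the phases. Fabp5 changed sign against control livers at weeks 2, 4, 6 and 10. Without week 6 the Pearson r of Gpnmb and Krt19 across CCl4 livers was -0.315, against 0.153 with it. Of 5540 values of single gene changes recomputed, 268 lost a call and 7 gained one. With a fit to the groups of each comparison alone, the number of the 6 genes called higher was 3 at week 2 and 1 at week 4, and that of the 48 neighbour genes was 4 at week 4. With a fold change above 2, the neighbour counts were 15 at week 6, 5 at week 8 and 7 at week 10. With 18 separate arrays, 2 of the 6 genes (Gpnmb and Lgals3) were called at week 8 against week 6 and 2 at week 6 against the other treated weeks. With 18 separate arrays and a replicate block these counts were 1 (Lgals3) and 2, and at week 4 against control livers 3 of the 6 genes were called in place of 4. The labels tie no replicate number to a shared litter or day. With 18 separate arrays, the Pearson r of Gpnmb and Pla2g7 across CCl4 livers was 0.643 (adjusted permutation p = 0.0186). Leaving out each array in turn gave 1 to 5 of the 6 genes at week 2 and 1 to 4 at week 4, and 6 to 15 neighbour genes at week 2, 6 to 12 at week 4, 3 to 9 at week 8 and 7 to 14 at week 10. Where week 6 was left with 1 sample, or another group with 2, the spread was taken from all groups. The cause of these differences was not tested. The groups had 3 mice each, with 2 samples at week 6, and the values used here hold no detection call. Low levels, such as those of Gpnmb and Pla2g7 in control livers and of Fabp5 in all livers, therefore have only a relative meaning.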
